A study of Mus musculus with 8 samples.

Results

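The core circadian clock genes were examined in islets that overexpress UCP2 in β-cells and in control islets. They are the 10 genes Per1, Per2, Per3, Cry1, Cry2, Clock, Nr1d1, Nr1d2, Dbp and Tef, and every array probe that carries one of these symbols was taken, which gave 26 of the 56605 probes on the array (10 of 26894 gene symbols). The labels give islets of male βUCP2Tg mice (4 samples) and male WT mice (4 samples). According to the study's methods, the transgene places mouse Ucp2 cDNA behind the rat Ins2 promoter, which acts in β-cells, the line was backcrossed to C57BL6/J, WT mice were littermates, and all mice were housed in a light-dark cycle. Mice of both genotypes were 8 to 20 weeks old over all experiments, and those described for islet isolation were 8 to 12 weeks old. All islets were kept in RPMI medium with 200 mg/dL glucose for 8 h before RNA was taken. For islet studies in general, the methods also describe an overnight culture in RPMI medium with serum after the islets were picked. The age of the mice behind each single sample, the time of day at which islets were isolated and the number of mice behind each sample were not settled from the sources used here, and errors and p-values therefore describe the spread between samples, which may be technical.

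The clock is a transcriptional loop present in nearly every cell, β-cells included, where it is known to time insulin secretion. CLOCK and its partner BMAL1 (gene Arntl) bind E-boxes and switch on the Per and Cry genes, whose proteins then inhibit CLOCK and BMAL1, and they also switch on Nr1d1 and Nr1d2, whose REV-ERB proteins repress Arntl through ROR elements. DBP and TEF are outputs of the loop that activate genes through D-boxes, and NFIL3 opposes them at the same sites. The mRNA of most of these genes swings over the day, and one time point gives neither the phase nor the amplitude of that swing.

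The promoters of 6 of the clock genes held letters that these factors are known to bind, and the stretches that hold them are shown to place the genes beside the motifs of the loop. Sequences are from RefSeq on GRCm38.p6, run 5′ to 3′ on the strand of the gene, do not run past the annotated start, and have the matched motif in capitals.
Per1 promoter, chr11:69098743-69098828, plus strand: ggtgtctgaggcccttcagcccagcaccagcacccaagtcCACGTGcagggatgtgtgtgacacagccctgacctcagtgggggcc
Cry1 promoter, chr10:85185069-85185173, minus strand: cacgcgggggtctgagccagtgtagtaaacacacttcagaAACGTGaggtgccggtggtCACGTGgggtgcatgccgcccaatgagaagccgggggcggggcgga
Tef promoter, chr15:81802506-81802591, plus strand: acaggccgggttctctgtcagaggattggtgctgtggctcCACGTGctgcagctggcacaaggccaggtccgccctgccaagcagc
Tef promoter, chr15:81811236-81811321, plus strand: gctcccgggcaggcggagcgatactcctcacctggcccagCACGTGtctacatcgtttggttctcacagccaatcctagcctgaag
Cry2 promoter, chr2:92434190-92434275, minus strand: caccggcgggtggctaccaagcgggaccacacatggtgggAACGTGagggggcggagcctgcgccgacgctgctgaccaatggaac
Nr1d1 promoter, chr11:98775378-98775445, minus strand: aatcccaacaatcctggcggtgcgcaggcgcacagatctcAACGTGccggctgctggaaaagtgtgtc
Per3 promoter, chr4:151044776-151044910, minus strand: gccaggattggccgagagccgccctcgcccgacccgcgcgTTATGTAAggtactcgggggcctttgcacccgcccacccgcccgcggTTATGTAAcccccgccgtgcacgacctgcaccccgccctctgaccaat
The motifs searched, on both strands over 250 bases before to 50 bases after each start, were 5. They were the E-box, which reads CACGTG, and its variant, which reads CACGTT and appears as AACGTG where it lies on the other strand. The D-box was searched as TTATGTAA, the core of the ROR element as TAGGTCA and the cAMP response element as TGACGTCA. No match of one coincided with a match of another in these promoters. RefSeq promoters were found for 9 of the 10 clock genes (13 promoters), with no entry for Per2. An E-box stood in promoters of 3 genes, at 166 bases before the start in Per1, 60 in Cry1, and 127 and 138 in the 2 promoters of Tef, and it occurs in 7.15% of all 32851 promoters. The variant stood at 79 bases before the start in Cry1, 166 in Cry2 and 28 in Nr1d1, against 4.68% of all promoters. Per3 alone among them had the D-box, which occurs in 0.938% of all promoters, and had it at 205 and at 158 bases before its start. The ROR core (2.61% of all promoters) and the cAMP response element (1.79%) were found in no clock promoter, and the windows of Clock, Nr1d2 and Dbp held none of the motifs. A match describes the letters only, and binding was not measured.

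Probe sequences are shown for the 3 clock genes with the largest differences, Per1, Cry1 and Dbp, whose probes gave different sizes of change, and for Nfil3, whose 2 probes gave similar ones. The first 30 of the 60 bases of each are as the authors' deposited GeneSpring output gives them.
Per1 A_55_P1970033: gtgttctcagctctaccctctaccaatgac
Per1 A_55_P2019327: ttagtgtttcagggcagtagaggtggccgg
Cry1 A_55_P2880103: aaggagtgcatccagggcgccgacaccatc
Cry1 A_52_P420500: ttttcatgtatggtaaaagttaaagttaac
Dbp A_51_P180492: tgccagggcagagtcctgttccttgctcag
Dbp A_55_P2032079: tggggaacccatccatccaaccgcctccat
Nfil3 A_55_P2035320: tttgctctattataaagtgtgtatgttgcc
Nfil3 A_52_P500027: cgttatttttgctctattataaagtgtgta
The Nfil3 probes share a run of 53 bases and are close to one measurement, whereas the Per1, Cry1 and Dbp pairs share no run longer than 6 bases and read different parts of their transcripts.

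Values are log2 of the background-subtracted intensity after subtraction of the array's 75th percentile, called normalized log2 signal here, and a difference is βUCP2Tg minus WT. Ucp2, the transgene, has 2 probes. The brighter had a signal of 6.99 to 7.71 in βUCP2Tg islets and 0.92 to 1.46 in WT islets (difference 6.24, limma, adjusted p = 9.32e-06). The other was at 0.78 to 0.90 and 0.22 to 0.73 (difference 0.44, adjusted p = 0.0987, limma) and was not called, though every βUCP2Tg sample was above every WT sample on both, the direction the labels give. The hormone genes that define islet cells were bright on every array, with Ins1 at 8.25 to 8.77 and Gcg at 7.41 to 8.10. The 8 arrays lay on 1 slide with each genotype in its own row, so that position and genotype cannot be told apart, and before scaling every βUCP2Tg array was brighter (75th percentile 8.996 to 9.161 on the log2 scale) than every WT array (8.781 to 8.894). On WT replicates 1 and 3, 2 of 10 scanner quality metrics were out of range. βUCP2Tg replicate 4 and WT replicate 1 lay apart from the other arrays of their genotype in several clock genes, so results are given with and without them.

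No clock gene passed the test with all 8 arrays, except that Per1 (lower) and Dbp (higher) were called when the background was corrected by normexp instead, where 2.28% of all probes were called. On their brightest probes, Per1, Per2 and Cry1 had lower mean signals in βUCP2Tg islets, and Dbp, Per3 and Tef had higher ones. The brightest probes of Cry2, Clock, Nr1d1 and Nr1d2 differed by -0.15 to 0.11 on the log2 scale. The test was limma over the 35363 probes measured above background on 4 or more arrays. A probe was called where its Benjamini-Hochberg adjusted p was under 0.05 and its fold exceeded 1.5. It called 0 of the 25 clock probes tested, where 0.41% of all probes were called, and the lowest adjusted p of a clock probe was 0.0823. At an unadjusted p under 0.05 there were 12 clock probes (48% of 25), 4 higher and 8 lower, against 25.2% of all probes, of which 9.99% were higher and 15.2% lower. The groups did not overlap in 2 clock probes (8%), both lower in βUCP2Tg islets, against 12.4% of all probes (5.25% higher and 7.17% lower). The share at an unadjusted p under 0.05 was thus above the background and the share without overlap below it. The median difference of the 25 probes was -0.05 against -0.02 for all probes, and the median size, whatever the sign, was 0.40 against 0.21. Probes of 1 gene share a transcript, and the 25 are no sample of independent genes. The probe left untested was Clock A_55_P2741789, well above background on 3 of 8 arrays.

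**Figure D1:**
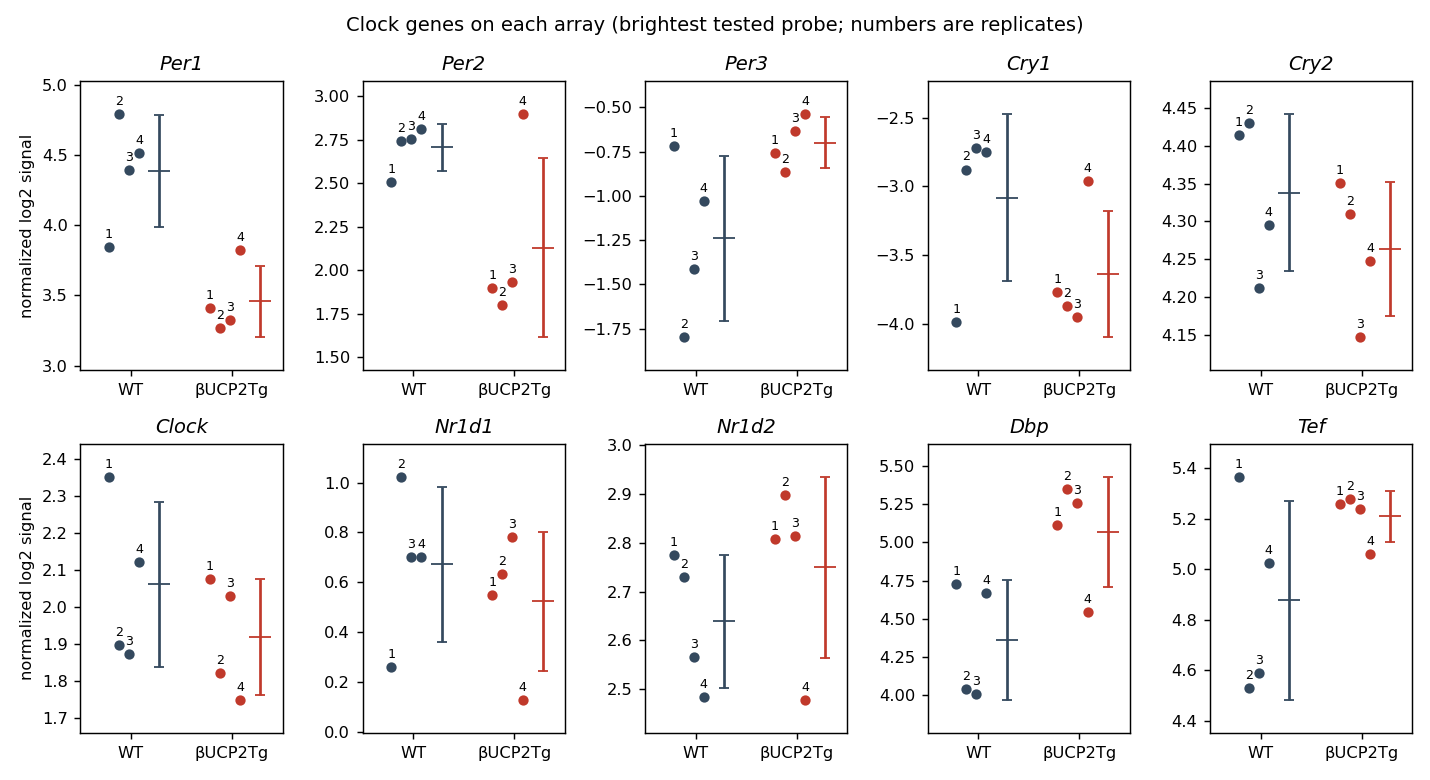
Normalized log2 signal (y axis, own scale in each panel) of the brightest tested probe of each clock gene on the 4 WT and 4 βUCP2Tg arrays, with replicate numbers and, beside the points, the mean and SD (n = 4). The groups are apart in Per1, where βUCP2Tg replicate 4 (3.83) lies just under WT replicate 1 (3.84), and overlap in the other 9 genes.

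In the positive limb, Clock encodes the DNA-binding partner of BMAL1. Its brightest probe read 2.08, 1.82, 2.03 and 1.75 in βUCP2Tg replicates 1 to 4 and 2.35, 1.90, 1.87 and 2.12 in WT replicates 1 to 4. The groups overlapped, and the difference was -0.14 (95% interval -0.46 to 0.17, adjusted p = 0.542, limma). The other tested Clock probes differed by -0.28 (adjusted p = 0.182) and -0.67 (adjusted p = 0.144) in the same fit, so that all 3 had the same sign. Arntl was dim. Its brightest probe read -2.92, -2.61, -3.05 and -2.79 in βUCP2Tg islets and -2.59, -1.63, -1.96 and -3.32 in WT islets, where replicates 2 and 3 were high, and differed by -0.47 (adjusted p = 0.408). A second Arntl probe, well above background on 1 βUCP2Tg and 4 WT arrays, was at -6.35 to -5.22 in βUCP2Tg islets and -4.85 to -3.71 in WT islets. That probe was tested through the WT arrays and is near background in βUCP2Tg islets, so no size is read from it, and the third probe differed by -0.55 (adjusted p = 0.559, limma). Arntl2, the close relative of Arntl, differed by -0.15 (adjusted p = 0.698).

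Per1, Per2 and Per3 encode the period proteins, which enter the nucleus with the cryptochromes and inhibit CLOCK and BMAL1. Per1 read 3.41, 3.27, 3.32 and 3.83 in βUCP2Tg islets and 3.84, 4.79, 4.39 and 4.51 in WT islets. Every βUCP2Tg sample was below every WT sample, with βUCP2Tg replicate 4 the highest of its group and WT replicate 1 the lowest of the other. The signal was 1.90-fold lower (difference -0.93 ± 0.21 SE, 95% interval -1.41 to -0.44, n = 4 per group, adjusted p = 0.0827 by limma). Under normexp background correction it was called (-0.90, adjusted p = 0.0349, limma). The two-sided exact permutation test gave p = 0.0286, the smallest that 4 arrays against 4 allow. The second Per1 probe was well above background on 5 of 8 arrays and differed by -0.05 (95% interval -0.71 to 0.60, adjusted p = 0.925), a sign that turned under quantile normalization (0.03) and scaling by the median (0.01).

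Per2 showed the same order of the 2 groups but with a single exception. Its brightest probe read 1.89, 1.80, 1.93 and 2.90 in βUCP2Tg islets and 2.51, 2.75, 2.76 and 2.81 in WT islets. In βUCP2Tg islets, 3 samples lay below all WT samples and replicate 4 lay above all of them. The difference was -0.58 ± 0.24 (SE, adjusted p = 0.179, limma). The dimmer Per2 probe read -4.43, -4.13, -4.44 and -4.07 against -4.04, -4.02, -3.64 and -3.56, and there the groups did not overlap (difference -0.45 ± 0.15, adjusted p = 0.129, limma). The margin between βUCP2Tg replicate 4 (-4.07) and WT replicate 1 (-4.04) was narrow, as in Per1.

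Per3 had the opposite sign. It read -0.76, -0.87, -0.63 and -0.54 in βUCP2Tg islets and -0.72, -1.80, -1.41 and -1.03 in WT islets. The βUCP2Tg samples were close together (SD 0.14) and WT replicate 1 lay among them, while the other 3 WT samples were lower (SD of all WT samples 0.47). The difference was 0.54 ± 0.22 (SE, adjusted p = 0.175), and the other Per3 probes differed by 0.40 (adjusted p = 0.246) and 0.27 (adjusted p = 0.493) in the same limma fit. The smallest of these turned to -0.07 under normexp background correction. Without WT replicate 2 the difference of the brightest probe was 0.36.

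Cry1 and Cry2 encode the cryptochromes, the main repressors of CLOCK and BMAL1. The Cry1 probe A_55_P2880103 read -3.77, -3.87, -3.95 and -2.96 in βUCP2Tg islets and -3.99, -2.88, -2.72 and -2.75 in WT islets. The groups crossed in 1 sample each, βUCP2Tg replicate 4 being near the WT samples and WT replicate 1 being the lowest of all 8. The difference was -0.56 ± 0.33 (SE, adjusted p = 0.324, limma). The other Cry1 probe, A_52_P420500, read -4.24, -4.07, -4.11 and -3.49 against -3.49, -2.98, -2.79 and -3.09, with the same 2 samples meeting at one value. It was 1.85-fold lower in βUCP2Tg islets (difference -0.89 ± 0.20, adjusted p = 0.0823 by limma, exact permutation p = 0.0571).

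Cry2 depended on the probe. Its brightest probe lay between 4.15 and 4.35 in βUCP2Tg islets and between 4.21 and 4.43 in WT islets, a difference of -0.07 (95% interval -0.29 to 0.14, adjusted p = 0.646) that turned to 0.02 under quantile normalization. The other probes differed by -0.46 (adjusted p = 0.168) and -0.57 (adjusted p = 0.139) in the limma fit. For the latter, βUCP2Tg islets read 0.47, 0.54, 0.63 and 1.09 and WT islets 0.94, 1.62, 1.44 and 0.99. Again βUCP2Tg replicate 4 alone was within the WT range.

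Nr1d1 and Nr1d2 encode REV-ERBα and REV-ERBβ, the heme-binding repressors of Arntl. Nr1d1 read 0.55, 0.63, 0.78 and 0.13 in βUCP2Tg islets and 0.26, 1.02, 0.70 and 0.70 in WT islets. The lowest values were those of βUCP2Tg replicate 4 and WT replicate 1, and the groups overlapped (difference -0.15, 95% interval -0.59 to 0.29, adjusted p = 0.659, limma). The brightest Nr1d2 probe read 2.81, 2.90, 2.81 and 2.48 against 2.78, 2.73, 2.57 and 2.48. Its difference was 0.11 (95% interval -0.17 to 0.39, adjusted p = 0.597), and the other 2 probes differed by 0.11 and 0.05 (adjusted p = 0.479 and 0.744, limma). The intervals leave room for changes of up to about those bounds in either direction and do not show that the genotypes are alike.

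Rora, whose protein activates Arntl at the sites where REV-ERBs repress it, differed little. Its brightest probe, at 3.417 to 3.648 in βUCP2Tg islets and 3.501 to 3.757 in WT islets, differed by -0.13 (adjusted p = 0.434, limma). Rorb and Npas2, the latter a stand-in for Clock in some tissues, were not well above background on enough arrays to be tested.

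**Figure D2:**
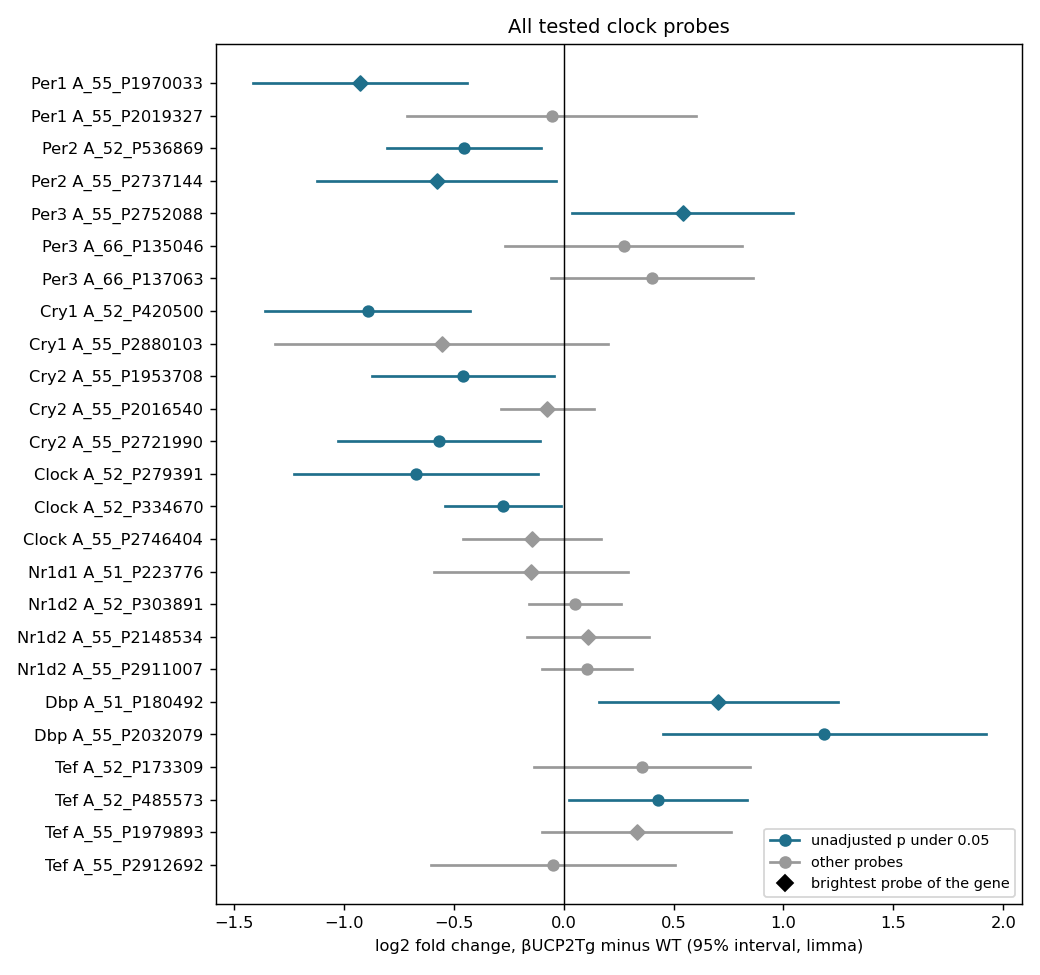
Log2 fold change (x axis, βUCP2Tg minus WT, limma) with its 95% interval for each of the 25 tested clock probes, grouped by gene on the y axis. Intervals of 12 probes exclude 0 before adjustment, from Per1 at -0.93 to Dbp at 1.19, and none is called after adjustment.

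Dbp and Tef encode PAR bZIP factors that carry the rhythm from E-boxes to D-box genes. The brightest Dbp probe read 5.11, 5.35, 5.26 and 4.55 in βUCP2Tg islets and 4.73, 4.04, 4.01 and 4.67 in WT islets. In βUCP2Tg islets, 3 samples lay above all WT samples, and replicate 4 lay below WT replicates 1 and 4. The signal was 1.63-fold higher (difference 0.70 ± 0.24, 95% interval 0.16 to 1.25, adjusted p = 0.130 by limma). The second Dbp probe read 4.83, 5.11, 4.95 and 4.24 against 4.37, 3.08, 3.09 and 3.85. It was 2.28-fold higher (difference 1.19 ± 0.32, adjusted p = 0.0969 by limma, exact permutation p = 0.0571), the largest difference of any clock probe. Under normexp this probe was called (1.19, adjusted p = 0.0415, limma) and the brightest was not (0.72, adjusted p = 0.0588). On the second probe, the crossing was between βUCP2Tg replicate 4 and WT replicate 1 only.

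Tef differed less. Its brightest probe read 5.26, 5.28, 5.24 and 5.06 in βUCP2Tg islets and 5.37, 4.53, 4.59 and 5.03 in WT islets. The βUCP2Tg samples were close together (SD 0.10), and WT replicate 1 was the highest of all 8. The differences of the 4 Tef probes were 0.33, 0.43, 0.36 and -0.05 (adjusted p = 0.300, 0.179, 0.330 and 0.918, limma), the last turning to 0.01 under scaling by the median, and that of the brightest was 0.22 without WT replicate 2. Hlf, the third PAR bZIP gene, differed by 0.25 (adjusted p = 0.394, limma).

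Nfil3 encodes the repressor that competes with DBP, TEF and HLF at D-boxes, and it had the largest difference among the partners of the clock genes. It read 2.27, 2.14, 2.04 and 2.90 in βUCP2Tg islets and 3.124, 4.525, 4.003 and 3.731 in WT islets. All βUCP2Tg samples were below all WT samples, again with βUCP2Tg replicate 4 and WT replicate 1 the nearest pair. The signal was 2.85-fold lower (difference -1.51 ± 0.31 SE, limma, adjusted p = 0.0681), and the overlapping second probe gave -1.45 (adjusted p = 0.0823). This was short of a call, but with all 8 arrays Nfil3 was called under normexp (-1.48, adjusted p = 0.0299) and in limma with an intensity trend (-1.51, adjusted p = 0.0456). Its promoter had the ROR core at 12 bases before the start, shown in capitals on the strand of the gene as the reverse complement, which reads TGACCTA.
Nfil3 promoter, chr13:52981040-52981091, minus strand: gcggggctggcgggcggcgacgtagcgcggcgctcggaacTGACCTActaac

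Further repressors of CLOCK and BMAL1 were measured beside them. Bhlhe40 (DEC1), which competes for E-boxes, read 0.49, 0.59, 0.65 and 1.53 in βUCP2Tg islets and 0.79, 2.74, 2.68 and 2.45 in WT islets. WT replicate 1 lay among the βUCP2Tg samples, and the difference was -1.35 (adjusted p = 0.126, limma). Bhlhe41 (DEC2) differed by 0.05 (adjusted p = 0.798). Ciart (CHRONO), a repressor that binds BMAL1, read -0.50, -0.55, -0.44 and -0.47 against -0.19, 0.15, -0.35 and -0.28, with no overlap between the groups (difference -0.32, adjusted p = 0.152, limma). Its second probe differed by -0.52 (adjusted p = 0.0993), also without overlap, and its promoter held 3 E-boxes, at 116, 58 and 44 bases before the start.
Ciart promoter, chr3:95882229-95882384, minus strand: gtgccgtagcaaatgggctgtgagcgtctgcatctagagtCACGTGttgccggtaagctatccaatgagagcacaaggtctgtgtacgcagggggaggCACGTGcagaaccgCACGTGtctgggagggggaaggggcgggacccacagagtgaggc

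**Figure D3:**
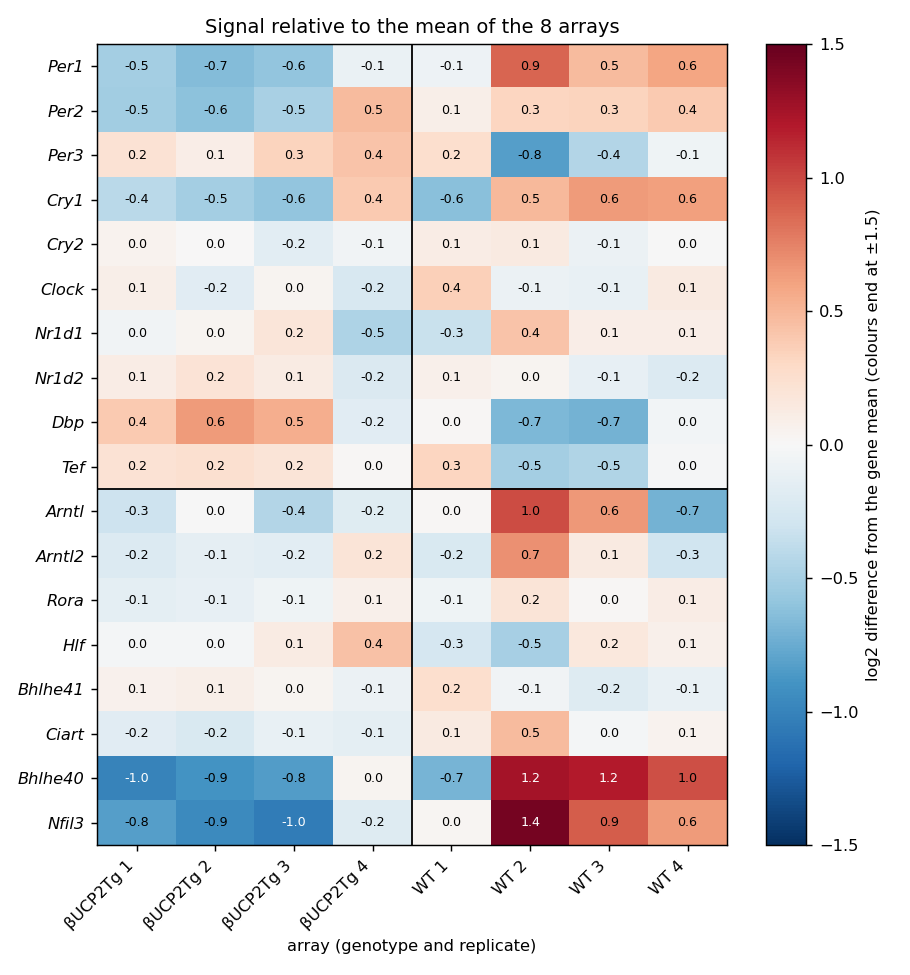
Difference of each array (columns) from the gene's mean over the 8 arrays (log2, colour and printed value) for the brightest tested probe of the 10 clock genes (above the line) and 8 partners and opposing factors (below it). βUCP2Tg replicates 1 to 3 are low in Per1, Per2, Cry1, Bhlhe40 and Nfil3 and high in Dbp, WT replicates 2 and 3 are the reverse, and βUCP2Tg replicate 4 and WT replicate 1 lie between them or on the other side.

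The wider clock list held 39 genes with 100 probes, of which 37 genes with 86 probes were tested, and 0 were called. At an unadjusted p under 0.05 there were 32 probes (37.2%), 2 higher and 30 lower, and in 15 probes (17.4%), all lower, the groups did not overlap, against 25.2% and 12.4% of all probes. Their median difference was -0.15, against -0.02 for all probes. Among partners and opposing factors, 17 probes of 9 genes were tested, with 6 at an unadjusted p under 0.05 and 5 without overlap, all lower. Without the Arntl probe that was tested through the WT arrays these were 5 and 4 of 16 (31 and 14 of 85 in the wider list). The partner probes then left without overlap were those of Nfil3, which are close to one measurement, and of Ciart. Among kinases, ligases and cofactors, which set the stability of PER and CRY proteins or act with the repressors, 16 of 42 probes were at an unadjusted p under 0.05, 1 higher and 15 lower. The outputs had 3 of 13 probes so, all lower, and the inputs, genes of cAMP and glucocorticoid signalling to the Per genes, had 7 of 14, 1 higher and 6 lower. Some genes enter these counts with more than 1 probe, Fbxw11 with all of its tested probes. The counts are therefore not counts of independent genes.

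Besides the background correction, the calls depended on 2 arrays. Without βUCP2Tg replicate 4, limma called 4 of the 25 clock probes, in Clock, Cry1, Per1 and Per2, all lower, when 4.18% of all probes were called. The brightest probes of Clock (-0.09, adjusted p = 0.737) and Cry1 (-0.78, adjusted p = 0.150) were not among them. Without WT replicate 1 it called 5, with Cry1 and Per1 lower and Dbp (its dimmer probe) and Per3 higher, when 10.8% of all probes were called. Without both it called 12 clock probes of 8 genes (48%), 5 higher and 7 lower, against 16% of all probes. In that fit Clock, Cry1, Cry2, Per1 and Per2 fell and Dbp, Per3 and Tef rose, each by at least 1 probe, and Nr1d1 and Nr1d2 were not called. The Clock call rested on a dimmer probe (-0.99, adjusted p = 0.0094), while the brightest differed by 0.01, and the Cry2 call on 1 of 3 probes (-0.81, adjusted p = 0.022). The calls of Per3 and Tef also rested on dimmer probes, since the brightest Per3 probe had an adjusted p of 0.0557 (difference 0.66) and the brightest Tef probe, at 0.54, was under the fold limit. Per1 then differed by -1.23 (adjusted p = 0.00263), Per2 by -0.90 (adjusted p = 0.00221) and Cry1 by -1.08 (adjusted p = 0.00175). Dbp differed by 1.00 on its brightest probe (adjusted p = 0.0169) and by 1.62 on the other (adjusted p = 0.00629), and Nfil3 by -1.94 (adjusted p = 0.00288). These arrays were chosen for leaving out with the values known, so the counts describe 3 samples against 3 and give no independent support. With any other single array left out, 0 clock genes were called.

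**Figure D4:**
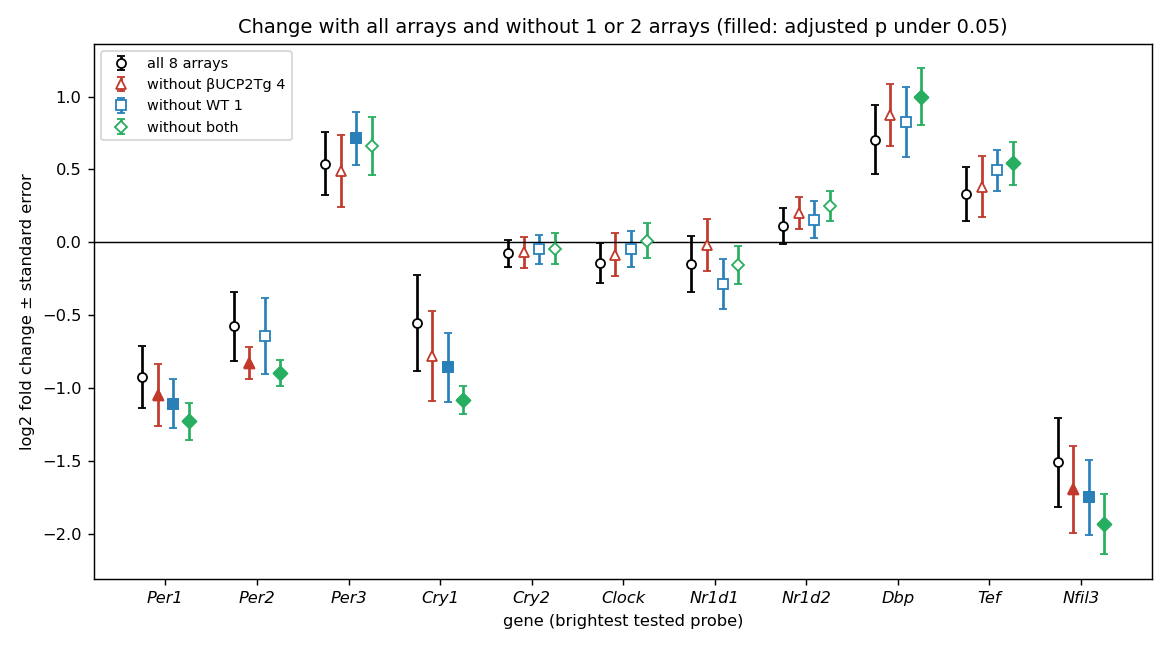
Log2 fold change ± SE (y axis, limma) of the brightest tested probe of each clock gene and of Nfil3 with all 8 arrays, without βUCP2Tg replicate 4, without WT replicate 1 and without both, filled where the adjusted p is under 0.05. No symbol is filled with all arrays, and without both Per1 (-1.23), Per2 (-0.90), Cry1 (-1.08), Dbp (1.00), Tef (0.54) and Nfil3 (-1.94) are filled.

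Markers of other cells in the islet preparation were set beside these values, since fewer cells of a type and less RNA per cell cannot be told apart in such samples. The acinar list (10 of 10 genes tested) had a summed level of 3.25 to 7.45 on the log2 scale in βUCP2Tg islets, where replicate 4 had the highest value, and of 6.76, 7.78, 8.31 and 3.80 in WT replicates 1 to 4, where replicate 4 stood apart. The duct list (2 of 3 genes tested, Cftr not well above background on enough arrays) was at -2.87 to -2.58 in βUCP2Tg islets and -1.95 to -0.45 in WT islets, and the macrophage list (6 of 6 genes) at 3.28 to 3.46 and 3.51 to 3.67. Neither sum overlapped between genotypes (p = 0.0286 for each, exact permutation, two-sided), while the sums of the other marker lists did. Any value without overlap between groups of this size gives that p, and 12.4% of all probes were without overlap. In the duct sum Krt19 weighs most (-1.63, adjusted p = 0.0686, limma, no overlap). The dimmer Sox9 probes differed by -0.88 and 0.07, and in both the groups overlapped. The macrophage probes did not move together, 3 being higher and 8 lower, with C1qa at 0.66 (adjusted p = 0.0823), C1qb at -0.09 (adjusted p = 0.832) and the 3 Cd68 probes at -1.03 to -0.88 (limma). The endothelial list (6 of 6 genes) had sums of 4.80 to 5.06 and 4.96 to 5.40, in which Egfl7 (-0.54) weighs most, while its median difference was 0.19 with 3 probes higher, among them Kdr (0.76) and Tek (0.65), and 3 lower. The β-cell list (7 of 7 genes) lay at 9.92 to 10.3 and 10.2 to 10.3. No defining marker of these lists other than Cftr was left untested. The part of these cells in the values of the clock genes was not tested.

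The genes whose array pattern lay nearest to that of Dbp or Cry1 were found by the root mean square difference between centred log2 profiles over the 8 arrays, among 35343 probes. Nearest to Dbp were Plb1 (0.08), Kcnh3 (0.09), Akip1 (0.11), Sit1 (0.11) and Sarm1 (0.11). Nearest to Cry1 were Inhbb (0.11), Frmd6 (0.13), Adgrf5 (0.13), Pdxk (0.14) and Ripk3 (0.14). Plb1, for instance, read -1.64, -1.52, -1.60 and -2.29 in βUCP2Tg islets and -2.25, -2.89, -2.92 and -2.36 in WT islets, so that βUCP2Tg replicates 1 to 3 were the highest and WT replicates 2 and 3 the lowest, as for Dbp.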

How the data were processed

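RNA from islets of 4 βUCP2Tg and 4 WT samples was hybridised to one-colour Agilent mouse arrays. The deposited scanner files hold linear spot intensity, which the authors obtained with Feature Extraction (10.7.3.1 in the file headers, 9.1 in the submitters' processing notes) after background subtraction, on build mm9, with no scaling between arrays. GeneSpring output that the authors deposited holds log2 values that the authors shifted to the 75th percentile of each array, and it also holds their fold changes and p-values, which were not used. Gene symbols are those it gives.

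Control and outlier spots were dropped, values were put on the log2 scale and lowered by the array's 75th percentile, and spots of a probe were averaged. A probe was measured on an array if at least 50% of its spots were well above background, and was tested if measured on at least 4 arrays. Groups were compared with limma 3.58.1 in R 4.3.3, without covariates, and with exact permutation tests for single values. A gene's value is that of its tested probe with the highest mean, and it counted as called if any of its probes had an adjusted p under 0.05 with more than 1.5-fold change. Between 33191 and 36320 probes were well above background per array, no spot was saturated, and the number of arrays limits the precision.

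The clock genes, the related lists, the markers and the alternatives were chosen with earlier results of these data known. Named in the text are all 10 clock genes, 10 of the 11 partners and opposing factors (the values of 1 are not reported here), the 5 nearest profiles of Dbp and of Cry1, Ucp2 and cell type markers. Promoter sequences came from RefSeq, on GRCm38.p6, which is not the build of the arrays, and probe sequences from the GeneSpring output. Alternatives were other filters, scalings, background correction, tests, the mean of all tested probes of a gene, the deposited log2 values, a replicate block and leaving out arrays.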

Additional observations from a re-analysis of the deposited data

Results flagged for a closer look

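Single samples far from the other 3 of their group were sought with Dixon's test in 88 groups of 4 (the tested probes of the clock genes, of their partners and of Ucp2), and 4 passed the 95% critical value, where chance gives about 1 in 20, or 4.4 of 88, so the number is no more than chance gives. In Per2 (A_55_P2737144), βUCP2Tg replicate 4 read 2.90 and the other βUCP2Tg samples 1.80 to 1.93, a gap of 0.88 of the range. In Cry1 (A_55_P2880103), WT replicate 1 read -3.99 and the other WT samples -2.88 to -2.72, a gap of 0.876 of the range. In Bhlhe40, βUCP2Tg replicate 4 read 1.53 against 0.49 to 0.65 (0.846 of the range), and WT replicate 1 read 0.79 against 2.45 to 2.74 (0.853 of the range). Of these 4 values, 2 are from βUCP2Tg replicate 4 and 2 from WT replicate 1, and nothing is read from that.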

How the results depend on the processing

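The number of clock genes called was 0 with all arrays and in 18 alternatives, and 2 under normexp correction (Dbp higher, Per1 lower), 0 to 4 with 1 array left out and 8 without βUCP2Tg replicate 4 and WT replicate 1 together. The number of related genes called was 0, against 4 under normexp, 1 with an intensity trend (Nfil3), 0 to 10 with 1 array left out and 15 without both arrays. All probes called higher and lower numbered 73 and 72, against 18 and 3 with no filter on dim probes, 138 lower when all 8 arrays were required, 23 lower with the percentile over probes measured on all arrays, 231 and 574 under normexp, 150 and 229 with the trend, 17 and 9 by the methods' t-test after adjustment, 8 to 1787 and 0 to 1972 with 1 array left out, and 2310 and 3176 without both arrays. On the brightest probe, the difference of Cry2 turned from -0.07 to 0.0173 under quantile normalization and that of Clock from -0.14 to 0.0108 without both arrays, and the other clock genes kept their sign in every alternative. With 1 array left out, Per1 ranged from -1.11 to -0.79, Per2 from -0.83 to -0.47, Cry1 from -0.86 to -0.43, Dbp from 0.59 to 0.88, Per3 from 0.36 to 0.71, Tef from 0.22 to 0.49, Nr1d1 from -0.29 to -0.02, Clock from -0.20 to -0.05, Cry2 from -0.12 to -0.04 and Nr1d2 from 0.06 to 0.20. With the mean of all tested probes of a gene in place of the brightest, Per1 moved from -0.93 to -0.49, Cry2 from -0.07 to -0.37 and Clock from -0.14 to -0.36. The cause of these shifts was not tested. The median of all probes, -0.02, was between -0.01 and 0.04 under the other scalings and -0.09 under normexp. Samples were not treated as paired by replicate number. Deviations of same-numbered samples from their group means correlated at 0.437, -0.0466, -0.00864 and -0.241. These values cannot show whether same-numbered samples were handled together. With the replicate number as a block 13 probes were called higher and 1 lower, with 0 clock genes. Dim probes near background, such as the second probes of Per1 and Arntl, are limited by signal.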
